A study of Mus musculus with 19 samples.

Results

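The Slc25 genes encode the mitochondrial carrier family, and their expression was followed in 19 RNA-seq libraries of microglia-enriched brain homogenate, 1 library per mouse. Members were the protein-coding genes whose GENCODE M21 symbol is Slc25a followed by a number, with a deposited value that reached 10 in 3 or more libraries. Of 47 such genes in the deposited table, 46 met the rule, among 23973 genes that passed the same filter out of 49671. Slc25a54 did not meet it, with 2 libraries at 10 or more and a highest value of 20.0. Just inside were Slc25a41, at 10 or more in 14 libraries with a highest value of 26.7, and Slc25a48, in 15 libraries with a highest value of 34.8.

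The mice were of 2 genotypes on the B6D2F1/J background. HEM mice overexpress full-length wild-type human alpha-synuclein under the murine Thy-1 promoter, from a transgene on the X chromosome, and WT mice served as controls. Thy-1 is expressed in neurons and T cells, so the promoter is not one of microglia. The older groups, aged 13 months, held 8 HEM and 4 WT animals, and the younger, aged 3 months, held 4 HEM and 3 WT animals. No group received a drug, and all brains went through the same microglia isolation.

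Mitochondrial carriers sit in the inner mitochondrial membrane, with a few members in the outer membrane or in peroxisomes. Most exchange a solute of the matrix for one of the cytosol: ADP for ATP, malate for oxoglutarate, or aspartate for glutamate. The phosphate carrier instead moves phosphate together with a proton. The carriers thereby connect respiration to the cytosol and supply the matrix with nucleotides, cofactors and iron. Carrier precursors reach the inner membrane through small Tim chaperones and the TIM22 translocase.

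The libraries held 63.3 to 95.8 M assigned reads (M, 1e6) in 13-month HEM, 93.2 to 124.5 M in 13-month WT, 74.7 to 112.9 M in 3-month HEM and 83.0 to 106.8 M in 3-month WT. Microglia markers were abundant in each library, with a summed value of 404850 to 1153000 over 10 genes in 13-month HEM and 595190 to 1026300 in 13-month WT. Markers of other cells were present too. The 6 choroid plexus and ependyma markers summed to 1339000 to 2607900 in 13-month HEM and 3359400 to 4015100 in 13-month WT, and those groups did not overlap. They summed to 2260600 to 3893200 in 3-month HEM and 1964000 to 3492100 in 3-month WT. The 10 neutrophil markers summed to 64306 to 551750 in 13-month HEM, against 38405 to 104650 in 13-month WT, and the 7 erythroid markers to 441530 to 1498500, against 287210 to 703200. HEM_13mo 1 and 11 and HEM_3mo 3 stood apart from the other libraries on principal components in an earlier look at these data. In bulk RNA, fewer cells of a type and less RNA per cell cannot be told apart.

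Levels are compared between genes per kilobase of merged exon, as the mean of the 4 group means of the normalized count. On this measure the ADP/ATP translocases Slc25a5, at 17130, and Slc25a4, at 14868 per kilobase, were the highest. The phosphate carrier Slc25a3 at 7629, the glutathione carrier Slc25a39 at 6159 and the oxoglutarate carrier Slc25a11 at 4380 followed. The first 2 held 41.3% and the first 4 held 59.1% of the family's summed level per kilobase. This order and these shares depend on the length used, which merges all annotated transcripts. It is 5550 bases for Slc25a3, 1646 for Slc25a5 and 2353 for Slc25a4. Without division by length, Slc25a3 had the highest mean count of the family in each group, such as 53089 against 45962 for Slc25a4 in 13-month WT. Which transcripts were present was not tested. Among the first 4 per kilobase, the ranges of neighbours over all libraries overlapped. Slc25a5 ranged from 11994 to 25432 and Slc25a4 from 10441 to 21638 per kilobase, while Slc25a3 ranged from 6003 to 11115 and Slc25a39 from 3561 to 9730. Such ranges set different libraries against each other and do not compare 2 genes within a library. The citrate carrier Slc25a1 (2721), the glutamate carrier Slc25a18 (2618) and Slc25a45 (1972) came next after Slc25a11 per kilobase. The highest and lowest members, Slc25a5 and Slc25a48, differed 3397-fold. There were 15 members above 1000 per kilobase and 9 below 100, among them Slc25a31 (18.1), the ADP/ATP carrier known from testis, and Slc25a47 (54.6), known from liver.

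Reads of a few members may be shared with other genes. By 50-base words of the GENCODE transcripts, 20 members shared none with another gene and 3 shared over 10%. Slc25a5 shared 33.8%, with processed pseudogenes such as Gm5560 and Gm5529. Slc25a35 overlaps Rangrf on the opposite strand over 31.3% of its exon bases, and Slc25a33 shared 12.6% with the antisense gene Gm13068. The strand setting of the counting is not given in the sources used here, so these values are less certain than those of Slc25a4 and Slc25a39, which shared 0%.

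Promoters are shown for some of the carriers whose levels differed at 13 months and which hold a searched motif, beside examples whose levels did not pass the test. RefSeq windows (GRCm38.p6) of 250 bases before the start were found for 35 of the 46 members, including the 14 called lower in HEM than in WT at 13 months. Genes with several annotated starts have a window for each, and a gene was counted where any of its windows held the motif. The E-box CACGTG, a palindrome bound by basic helix-loop-helix factors, was in 7 of the 35 (20%), against 6.86% of all genes with a window. The 7 were Slc25a1, Slc25a13, Slc25a14 and Slc25a33, which were lower in HEM at 13 months, and Slc25a15, Slc25a31 and Slc25a36, which did not pass the test. In Slc25a15 the E-box is not in the window of the most upstream start but in that of another. The whole windows of Slc25a1 (chr16:17928220-17928469, minus strand) and Slc25a13 (chr6:6217174-6217423, minus strand) follow, 5′ to 3′ along the gene, with the E-box in capitals.
Slc25a1: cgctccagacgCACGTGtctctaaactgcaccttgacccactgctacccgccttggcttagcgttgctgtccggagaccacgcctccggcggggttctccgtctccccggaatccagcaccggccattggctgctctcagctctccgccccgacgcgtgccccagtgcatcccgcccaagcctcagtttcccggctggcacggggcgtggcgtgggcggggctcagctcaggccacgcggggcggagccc
Slc25a13: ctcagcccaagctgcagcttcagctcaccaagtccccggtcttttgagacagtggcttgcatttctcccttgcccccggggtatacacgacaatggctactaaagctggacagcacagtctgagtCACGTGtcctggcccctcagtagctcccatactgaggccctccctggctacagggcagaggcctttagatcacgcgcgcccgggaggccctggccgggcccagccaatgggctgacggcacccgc
The E-box surroundings in Slc25a31 (chr3:40708753-40708808, plus strand) and Slc25a36 (chr9:97111198-97111253, minus strand) are given for comparison.
Slc25a31: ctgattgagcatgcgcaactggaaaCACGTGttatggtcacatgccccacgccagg
Slc25a36: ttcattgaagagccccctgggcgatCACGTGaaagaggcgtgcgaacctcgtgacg
The palindromic motif of nuclear respiratory factor 1 (NRF1), an activator of many mitochondrial genes, was in 2 of the 35 (5.71%), Slc25a3 and Slc25a31, against 4.23% of genes. It is shown in capitals for Slc25a3 (chr10:91124151-91124206, minus strand).
Slc25a3: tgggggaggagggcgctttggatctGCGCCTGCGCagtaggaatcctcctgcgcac
Of the other motifs, each searched on both strands, CCGGAAGT of GABP was in Slc25a20 (3.23% of genes) and TGACGTCA of CREB in Slc25a36 and in a window of Slc25a25 other than that of its most upstream start (1.77% of genes). TNAAGGTCA of the estrogen-related receptors (1.30% of genes) and AANATGGCG of YY1 (1.29% of genes) were in no member's window. These matches describe letters, and with 7 or fewer members per motif nothing was tested.

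At 13 months, 14 carriers were lower in HEM than in WT mice, among them the phosphate carrier Slc25a3, the ADP/ATP translocases Slc25a4 and Slc25a5, the citrate carrier Slc25a1 and the aspartate/glutamate carriers Slc25a12 and Slc25a13. None of these calls held with the choroid plexus and ependyma level or with the neutrophil and erythroid level in the model, as given below. Of the 46 members, 14 (30.4%) were called lower and 0 higher at an adjusted p under 0.05 (limma-trend on log2(value + 1), Benjamini-Hochberg over all tested genes). Over all 23973 genes, 7.3% were called lower, 4.87% higher and 12.2% in either direction. The members' median log2 change was -0.13, against 0.034 over all genes, with 29 members negative and 17 positive. For 3 members, Slc25a3, Slc25a4 and Slc25a39, the groups did not overlap, which held for 3.98% of all genes in that direction, 2.69% in the other and 6.66% in either. Changes below are log2 estimates with the standard error, HEM minus WT. In genotype comparisons, fell and rose mean lower and higher in HEM than in WT of the same age, not a change over time.

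**Figure D1:**
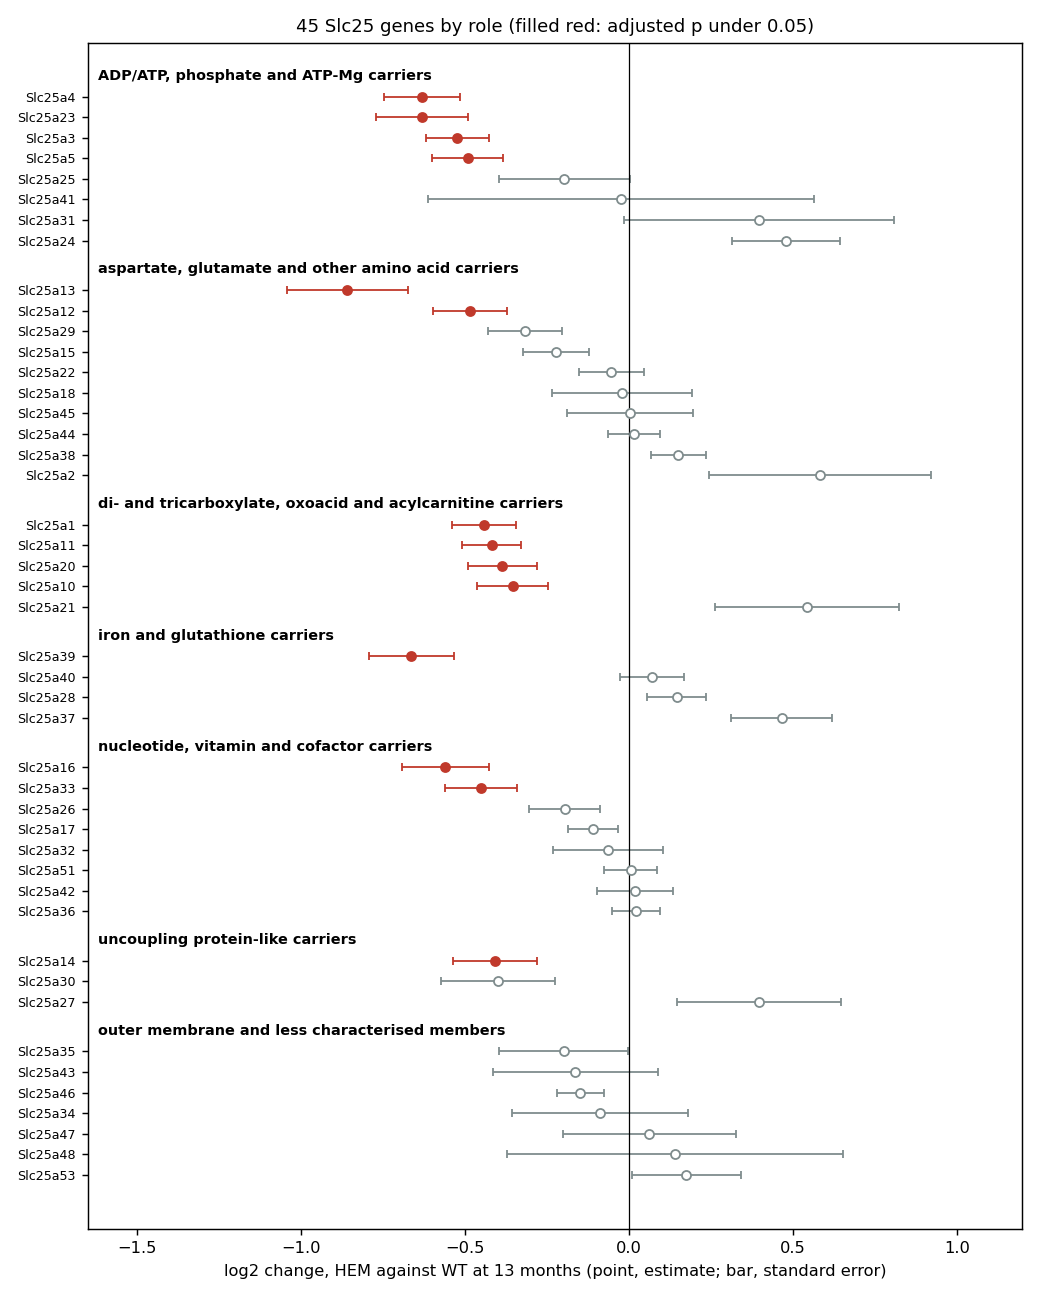
Log2 change of 45 Slc25 genes between HEM (n = 8) and WT (n = 4) at 13 months, grouped by role; points are estimates, bars are standard errors and filled red points have an adjusted p under 0.05. The 14 filled points all lie below 0, from -0.86 for Slc25a13 to -0.36 for Slc25a10, and none is found among the 7 outer membrane and less characterised members.

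Among the ADP/ATP, phosphate and ATP-Mg carriers, 4 of 8 fell. Slc25a3, which brings phosphate into the matrix for ATP synthesis (ENSMUSG00000061904, mm10 chromosome 10, 91116574 to 91124059), had normalized counts of 41675, 61687, 55571 and 53423 in WT. The 8 HEM libraries ran from 33315 over a median of 36077 to 40253. All HEM libraries lay below the lowest WT library, and the change was -0.52 ± 0.10 (limma adjusted p = 0.00272).

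Slc25a4, the ADP/ATP translocase prominent in heart, muscle and brain (ENSMUSG00000031633, chromosome 8, 46206797 to 46211284), had normalized counts of 40671, 50914, 45529 and 46733 in WT and of 24567, 28944 and 39674 as lowest, median and highest in HEM. Here too the groups did not overlap, and Slc25a4 fell by 0.63 ± 0.12 on the log2 scale (limma adjusted p = 0.00285). Its sister translocase of proliferating tissues, Slc25a5 (ENSMUSG00000016319, chromosome X, 36795651 to 36798807), had 28285, 41861, 36061 and 36426 in WT and 19742, 24979.6 and 31938 in HEM. A single HEM library exceeded the lowest WT library, and the change was -0.49 ± 0.11 (limma adjusted p = 0.00646).

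Slc25a23, a calcium-regulated exchanger of ATP-Mg for phosphate (ENSMUSG00000046329, chromosome 17, 57043711 to 57059863), had normalized counts of 9297, 11202, 10023 and 11779 in WT and 5308, 6324 and 10035 in HEM. HEM overlapped WT through 1 library, and the change was -0.63 ± 0.14 (limma adjusted p = 0.00717). Of its paralogs, Slc25a24 had a change of 0.48 ± 0.16 (limma adjusted p = 0.0655) and Slc25a25 of -0.20 ± 0.20 (limma adjusted p = 0.620). The low members Slc25a31 and Slc25a41 did not pass the test either.

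**Figure D2:**
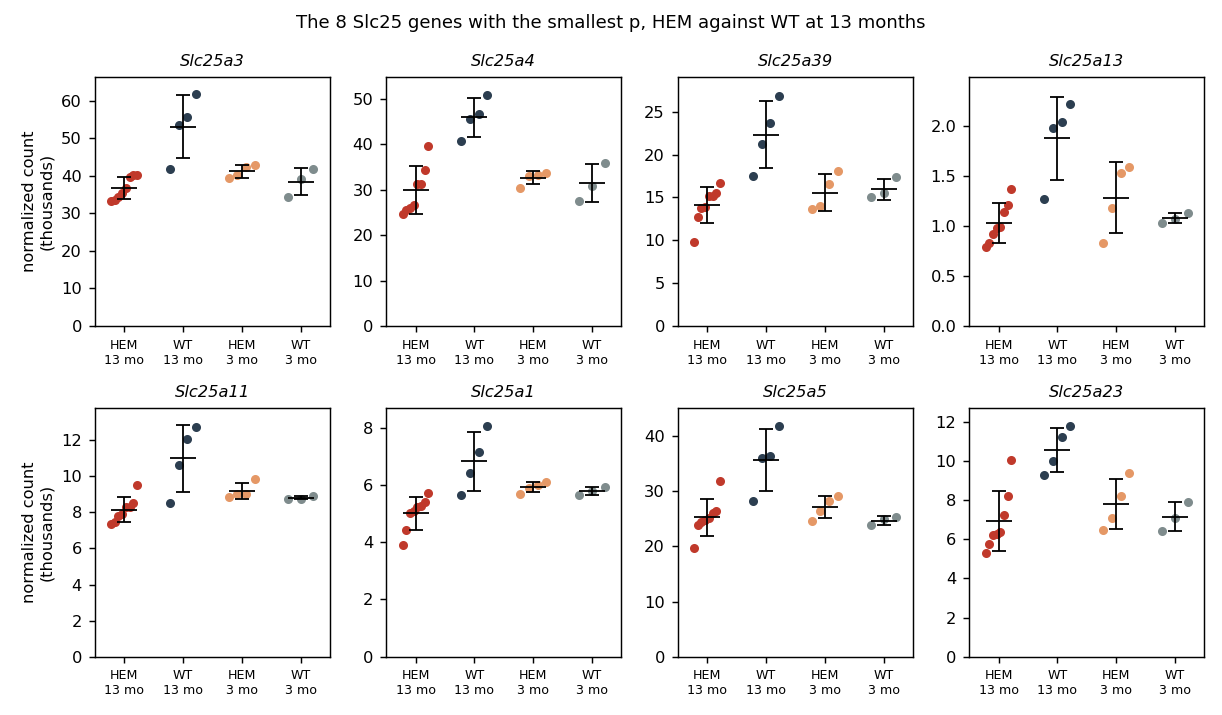
Normalized counts (axis divided by 1000) of the 8 Slc25 genes with the smallest p at 13 months, by group; each point is a library, and the dash with bars is the mean ± SD (n = 8, 4, 4 and 3). In each panel the 13-month WT mean is the highest of the 4 means, for example 53089 for Slc25a3 against 36656 in 13-month HEM, 41196 in 3-month HEM and 38432 in 3-month WT.

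Of the 5 carriers of di- and tricarboxylates, oxoacids and acylcarnitine, 4 fell. Slc25a11, which exchanges oxoglutarate for malate in the malate-aspartate shuttle (ENSMUSG00000014606, chromosome 11, 70644196 to 70647479), had normalized counts of 8533, 12736, 10648 and 12073 in WT and 7381, 8116 and 9495 in HEM. Slc25a1, which exports citrate for fatty acid synthesis (ENSMUSG00000003528, chromosome 16, 17925223 to 17928219), had 5660.2, 7142, 6418 and 8068 in WT and 3892, 5166 and 5737 in HEM. In both, a single HEM library lay above the lowest WT library. The changes were -0.42 ± 0.09 for Slc25a11 and -0.44 ± 0.10 for Slc25a1 (limma adjusted p = 0.00579 and 0.00631). The carnitine/acylcarnitine carrier Slc25a20 (-0.39 ± 0.10) and the dicarboxylate carrier Slc25a10 (-0.36 ± 0.11) also fell. Slc25a21, the oxodicarboxylate carrier, had a change of 0.54 ± 0.28 (limma adjusted p = 0.247).

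Both aspartate/glutamate carriers, the calcium-regulated partners of Slc25a11 in that shuttle, fell, while the other 8 amino acid carriers did not pass the test. Slc25a13 (ENSMUSG00000015112, chromosome 6, 6041218 to 6217173), whose E-box is shown above, had normalized counts of 1271, 2041, 1976 and 2218 in WT and 787, 983 and 1368 in HEM. Its change of -0.86 ± 0.18 was the largest of the 14 (limma adjusted p = 0.0056), although WT_13mo 6, at 1271, lay below the highest HEM library. Slc25a12, the paralog prominent in brain and muscle, fell by 0.48 ± 0.11 on the log2 scale. The basic amino acid carrier Slc25a29 (-0.32 ± 0.11), the ornithine carrier Slc25a15 (-0.22 ± 0.10) and the glutamate carriers Slc25a18 (-0.02 ± 0.21) and Slc25a22 (-0.05 ± 0.10) had adjusted p of 0.0753 or more. The heme-linked glycine carrier Slc25a38 had a change of 0.15 ± 0.08.

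Of the 4 iron and glutathione carriers, Slc25a39 fell. This glutathione importer (ENSMUSG00000018677, chromosome 11, 102402985 to 102407946) had normalized counts of 17519, 26816, 21272 and 23675 in WT and 9815, 14484 and 16685 in HEM. All 8 HEM libraries lay below the WT libraries, with a change of -0.66 ± 0.13 (limma adjusted p = 0.00364). Its paralog Slc25a40 had a change of 0.07 ± 0.10. Slc25a37, mitoferrin 1, the iron importer of erythroid cells, ran from 7221 to 15073 in HEM and from 6878 to 8769.9 in WT. Its change was 0.47 ± 0.15 (limma adjusted p = 0.0559), and erythroid marker sums were higher in HEM too, 2 of 7 such markers having risen. The part of those cells in the Slc25a37 value was not tested. Slc25a28, mitoferrin 2, had a change of 0.14 ± 0.09.

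Among 9 carriers of nucleotides, vitamins and cofactors, Slc25a16, linked to coenzyme A (-0.56 ± 0.13), and the pyrimidine nucleotide carrier Slc25a33 (-0.45 ± 0.11) fell. Slc25a16 averaged 2255 in 13-month HEM, 3274 in 13-month WT, 2498 in 3-month HEM and 2149 in 3-month WT. For Slc25a33 those means were 2239, 3049, 1870 and 1946, so 13-month HEM lay above both 3-month groups. The other 7 did not pass the test and had changes between -0.20 for the S-adenosylmethionine carrier Slc25a26 and 0.02 for Slc25a36, the paralog of Slc25a33. Of the 3 uncoupling protein-like carriers, Slc25a14 fell (-0.41 ± 0.13, limma adjusted p = 0.0438), Slc25a30 had -0.40 ± 0.17 (limma adjusted p = 0.154) and Slc25a27 had 0.40 ± 0.25. None of the 7 outer membrane and less characterised members passed the test, the outer membrane protein Slc25a46 having a change of -0.15 ± 0.07.

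Several other carriers that were not called had these group means at 13 months. The peroxisomal carrier Slc25a17 averaged 4125 ± 277 (SD, n = 8) in HEM against 4445 ± 191 (SD, n = 4) in WT mice, with a change of -0.11 ± 0.08. The NAD carrier Slc25a51 averaged 5859 ± 633 and 5814 ± 318, and the coenzyme A carrier Slc25a42 1683 ± 213 and 1669 ± 288. For the folate carrier Slc25a32 the means were 317 ± 53.5 and 328 ± 29.9. Slc25a44, a carrier of branched-chain amino acids, averaged 3286 ± 258 and 3251 ± 241. Slc25a45, grouped here with the amino acid carriers, averaged 5164 ± 1506 and 5011 ± 768. Among the less characterised members, Slc25a53 averaged 743 ± 145 and 656 ± 120, and Slc25a35 averaged 882 ± 219 and 998 ± 191. Across the 5 comparisons, 29 of the 46 members were never called by limma.

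The median change of the 14 lower members was -0.49. Leaving out each library in turn left 10 to 14 members lower, with 10 when WT_13mo 7 was left out. Of the 14, 10 kept the call in all 19 such fits, while Slc25a14 lost it in 11, Slc25a10 in 5, Slc25a20 in 3 and Slc25a33 in 1. Without HEM_13mo 1 and 11 and HEM_3mo 3 together, 12 members were lower and Slc25a24 was higher. Within the groups, HEM_13mo 7 was the highest HEM library for 12 of the 14 and WT_13mo 6 the lowest WT library for 12. The same libraries were at the near ends for the choroid plexus and ependyma markers, at 2607900 and 3359400.

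Marker levels moved with these values. Of the 6 choroid plexus and ependyma markers, 5 fell at 13 months and their groups did not overlap, including Ttr (-0.93 ± 0.21) and Otx2 (-1.12 ± 0.20). Of 10 neutrophil markers 9 rose, as did 4 of 6 T and NK cell markers (summed value 5594 to 29777 in HEM and 2359 to 9176 in WT). With the choroid plexus and ependyma level in the model, a fit chosen after seeing the data, 0 members and 0 genes overall were called, with 4 members and 1991 genes at an unadjusted p under 0.05. All 14 estimates remained negative, with a median of -0.23 and a range of -0.65 to -0.04, and standard errors of the members were larger by a median factor of 1.57. In that fit Slc25a23 had -0.64 ± 0.23, Slc25a4 had -0.49 ± 0.18 and Slc25a3 had -0.39 ± 0.15, while Slc25a13 had -0.14 ± 0.20 and Slc25a39 had -0.19 ± 0.15. The lowest estimate, -0.65, belonged to another of the 14, whose estimate without a covariate was less negative. Not all members therefore moved in the same direction. With the neutrophil and erythroid level, 0 members and 0 genes were called as well (11 members and 2158 genes at an unadjusted p under 0.05). All 14 estimates remained negative there too, with a median of -0.41 and a range of -0.66 to -0.19. Standard errors of the members were larger by a median factor of 1.58 in that fit. With the neuron and glia level, the 14 were called lower again (median -0.48), and Slc25a37 was called higher. Genotype and the choroid plexus and ependyma level cannot be told apart at 13 months, since the groups do not overlap in it.

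**Figure D3:**
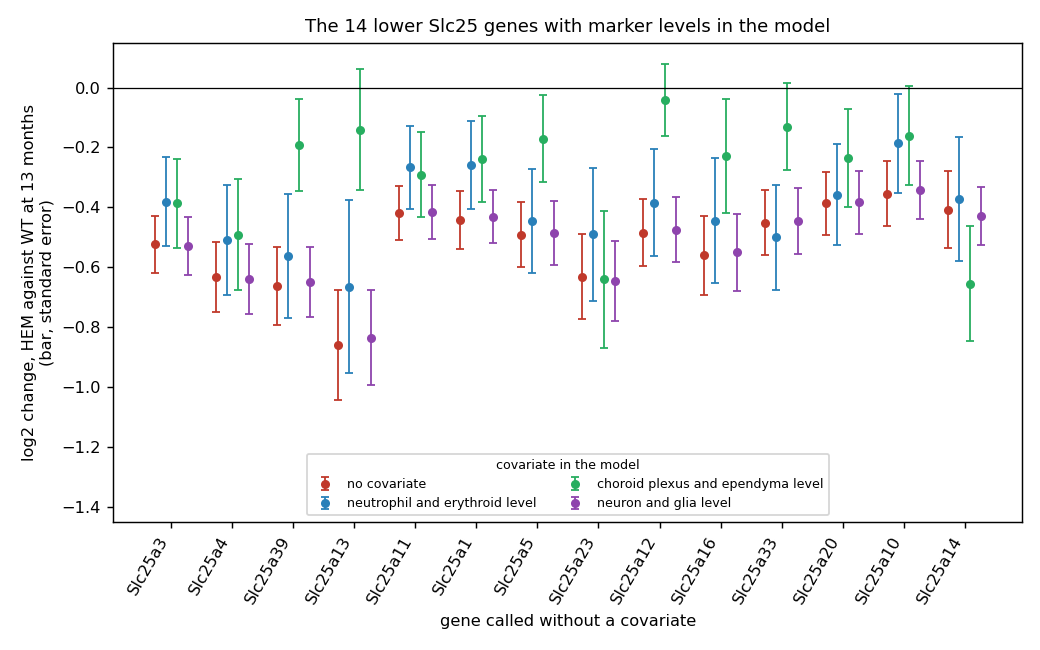
Log2 change between HEM and WT at 13 months for the 14 lower Slc25 genes, without a covariate and with each of 3 marker levels in the model; bars are standard errors. With the choroid plexus and ependyma level the point nearest 0 is that of Slc25a12 (-0.04), and Slc25a23 stays at -0.64.

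Genes that work beside the family were read from lists of their own. Of 5 carrier family genes under other symbols, Mtch1 (-0.80 ± 0.12) and Mtch2 (-0.31 ± 0.07), outer membrane relatives of the carriers, fell at 13 months. Of 10 genes of carrier import by the TIM22 route, 6 fell. They were the small Tim chaperones Timm13 (-0.65 ± 0.10), Timm8b (-0.61 ± 0.11), Timm8a1 (-0.53 ± 0.12) and Timm10 (-0.52 ± 0.12) and the translocase subunits Timm22 (-0.41 ± 0.08) and Timm29 (-0.21 ± 0.06). Of 19 other mitochondrial transport genes, 5 fell, among them the outer membrane channel Vdac1 (-0.45 ± 0.09) and the pyruvate carrier subunit Mpc1 (-0.40 ± 0.11). Abcb10, an inner membrane transporter of erythroid heme synthesis, rose (0.47 ± 0.10). The lists' medians were -0.28, -0.31 and -0.07, against 0.034 over all genes, of which 7.3% were called lower and 4.87% higher. These calls did not hold with the choroid plexus and ependyma level or the neutrophil and erythroid level in the model. Nor did they hold with the replicate number as a block. In each of those fits 0 genes were called.

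At 3 months no member was called between HEM and WT, and neither was any gene (0% of 23973). By limma, 924 genes had an unadjusted p under 0.05, of which 3 were members, and the members' median change was 0.03. edgeR called 0 genes and DESeq2 called 6, with no member among them. The smallest p belonged to Slc25a22, a glutamate carrier, with normalized counts of 5263, 6763, 4682.5 and 6164 in HEM and 4851, 3639 and 3741 in WT. The groups overlapped, and the change was 0.49 ± 0.12 (limma adjusted p = 1.0). Slc25a10 had 0.21 ± 0.14. In the other direction, Slc25a21 had 61.7, 65.6, 85.1 and 64.0 in HEM and 100.3, 198.6 and 108.3 in WT, a change of -0.91 ± 0.35 whose groups did not overlap. Slc25a16 was the other member without overlap, higher in HEM at 2347 to 2720.1 against 2129 to 2171. Such separation held for 2.78% of all genes in the lower direction, 3.08% in the higher and 5.86% in either. Slc25a25 had -0.54 ± 0.25. The 14 members that fell at 13 months had estimates here between -0.07 (Slc25a20) and 0.21 (Slc25a16), such as 0.10 ± 0.12 for Slc25a3, 0.06 ± 0.15 for Slc25a4 and -0.04 ± 0.16 for Slc25a39.

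The difference between the genotype effects at 13 and 3 months was tested directly. No member and no gene (0%) passed, although 18 members and 3551 genes had an unadjusted limma p under 0.05. The phosphate carrier Slc25a3 had a difference of -0.63 ± 0.15 (limma adjusted p = 0.0936) and Slc25a4 of -0.69 ± 0.19 (limma adjusted p = 0.108). Slc25a21 had 1.45 ± 0.45 and Slc25a37 had 0.64 ± 0.25. DESeq2 called 9 members lower, namely Slc25a3, Slc25a4, Slc25a5, Slc25a10, Slc25a11, Slc25a12, Slc25a13, Slc25a16 and Slc25a22, and Slc25a21 higher, where it called 564 genes lower and 374 higher (3.91% in all). By limma, 5 members were lower without HEM_13mo 7, among 1.31% of all genes called, and 5 without WT_13mo 6, among 1.17%.

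In WT mice, several carriers had higher values at 13 than at 3 months, of which Slc25a33 passed the test. Over all genes 0.463% were called higher and 0.246% lower, 0.709% in all. Slc25a33, which carries pyrimidine nucleotides (ENSMUSG00000028982, chromosome 4, 149744036 to 149774277), had normalized counts of 3004, 3319, 3259 and 2615 at 13 months and 1850.2, 2199 and 1788 at 3 months. The ages did not overlap, and the change was 0.65 ± 0.14 (limma adjusted p = 0.0379). That call was lost when any of 8 libraries was left out: WT_13mo 7, 8 or 9, HEM_3mo 1 or 4, or any 3-month WT library. Ages also did not overlap for Slc25a4, Slc25a5, Slc25a13, Slc25a16, Slc25a23, Slc25a29, Slc25a34 and Slc25a39, higher at 13 months, or for Slc25a28, lower. Those 9 higher and 1 lower compare with 8.83% and 6.46% of all genes, 15.3% in either direction. Slc25a5 had a change of 0.52 ± 0.14 (limma adjusted p = 0.0691) and Slc25a4 of 0.55 ± 0.15 (limma adjusted p = 0.0725). Slc25a3 had 0.46 ± 0.12 (limma adjusted p = 0.069) and Slc25a25 had -0.85 ± 0.25 (limma adjusted p = 0.0968). DESeq2 called 7 members higher and Slc25a25 lower, with 837 genes higher and 382 lower overall (5.08% in all). Without WT_13mo 6, limma called 6 members higher and 2.18% of all genes, and without HEM_13mo 7 it called 4 members and 1.95% of all genes. The comparison shares the 13-month WT libraries with that of HEM and WT at 13 months. Choroid plexus and ependyma markers had a median change of 0.59 with age in WT, with 0 of 6 called, and 3 of 5 pericyte and smooth muscle markers fell (summed value 30248 to 98367 at 13 months and 70816 to 148820 at 3 months). Astrocyte markers had a median of 0.70, with 1 of 6 called higher (199400 to 265280 against 114140 to 167400). The medians were -1.17 for erythroid markers (287210 to 703200 against 594570 to 1302500), -1.15 for endothelial markers (51709 to 157070 against 166020 to 230780) and -1.11 for neutrophil markers (38405 to 104650 against 73717 to 192320), with none of those 3 lists' markers called. Their part in the carrier values was not tested.

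Of the neighbouring lists, Timm8a1 (0.93 ± 0.15) and Vdac1 (0.50 ± 0.11) rose with age in WT, where 0.463% of all genes were called higher. All 10 TIM22 route genes had positive estimates with a median of 0.27. Over all 23973 genes 11704 were positive and the median was -0.011. Without WT_13mo 7, WT_3mo 1 or WT_3mo 5, 0 genes were called in this comparison.

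In HEM mice, the glutamate carrier Slc25a18 and the oxodicarboxylate carrier Slc25a21 rose from 3 to 13 months, and the glutamate carrier Slc25a22 fell. Over all genes 0.934% were called higher and 0.684% lower, 1.62% in all. Slc25a18 (ENSMUSG00000004902, chromosome 6, 120773578 to 120794336) ran from 3406 over a median of 6434 to 8455 at 13 months, against 2276, 3185, 3789 and 2975 at 3 months. The lowest 13-month library lay among the 3-month values, and the change was 1.01 ± 0.21 (limma adjusted p = 0.0242). Slc25a21 (ENSMUSG00000035472, chromosome 12, 56712634 to 57197472) ran from 97.9 over 165.3 to 248.3, against 61.7, 65.6, 85.1 and 64.0. Its ages did not overlap, as for 1.44% of all genes in that direction, 1.36% in the other and 2.79% in either, and the change was 1.25 ± 0.28 (limma adjusted p = 0.0312). Slc25a22 (ENSMUSG00000019082, chromosome 7, 141429744 to 141437892) ran from 3890.4 over 4363 to 4795, against 5263, 6763, 4682.5 and 6164, a change of -0.40 ± 0.10 (limma adjusted p = 0.0493) with overlap.

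**Figure D4:**
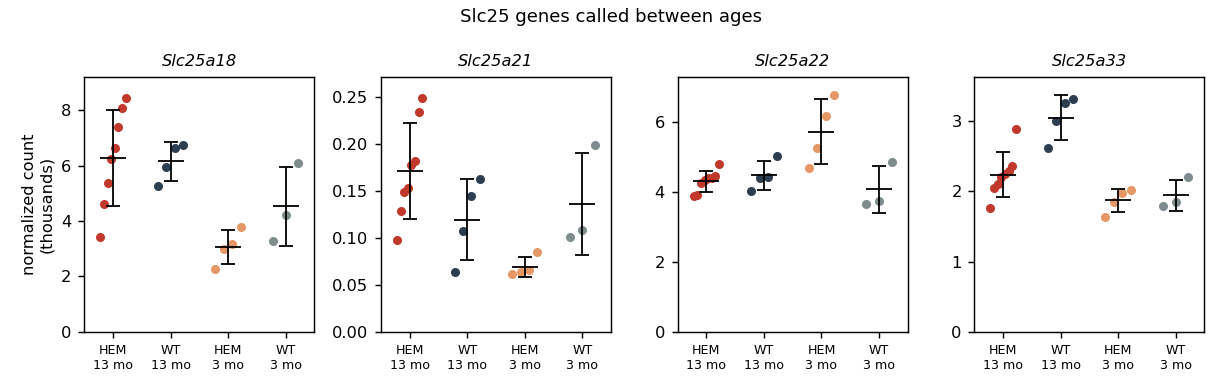
Normalized counts (axis divided by 1000) of the 4 Slc25 genes called between ages in WT (Slc25a33) or HEM (Slc25a18, Slc25a21, Slc25a22); each point is a library and the dash with bars is the mean ± SD (n = 8, 4, 4 and 3). Slc25a18 averaged 6273 in 13-month HEM and 3056 in 3-month HEM, and Slc25a33 averaged 3049 in 13-month WT and 1946 in 3-month WT.

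These 3 calls rested on few libraries. Slc25a22 lost its call in 15 of the 19 fits that left out a library, Slc25a21 in 6 and Slc25a18 in 2 (HEM_3mo 1 or 7). Without HEM_13mo 1 and 11 and HEM_3mo 3 together, no member was called. Slc25a34, a less characterised member, had a change of 0.99 ± 0.27 (limma adjusted p = 0.0668). Astrocyte markers moved in the same direction with age in HEM, 2 of 6 having risen with a median of 0.48 (summed value 171630 to 372840 at 13 months and 73752 to 149510 at 3 months), and neuron markers had a median of -0.93 with 0 of 8 called (7456 to 79408 against 29329 to 66574). Neutrophil markers had a median of 1.59, with 10 of 10 at an unadjusted p under 0.05 and 0 called (64306 to 551750 against 47006 to 148410). Endothelial markers had a median of -0.97 with 1 of 5 called lower (48725 to 177700 against 138450 to 291680). Of the choroid plexus and ependyma markers 1 of 6 was called lower (median -0.37), and of the erythroid markers 1 of 7 was called higher (median 0.08). Whether they bear on the 3 carriers was not tested. The 14 members that fell between genotypes had age estimates in HEM from -0.30 (Slc25a14) to 0.25 (Slc25a33), such as -0.17 ± 0.10 for Slc25a3 and -0.14 ± 0.12 for Slc25a4. Of the other transport genes, the sideroflexins Sfxn5 (0.84 ± 0.17) and Sfxn1 (0.44 ± 0.08) rose.

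**Figure D5:**
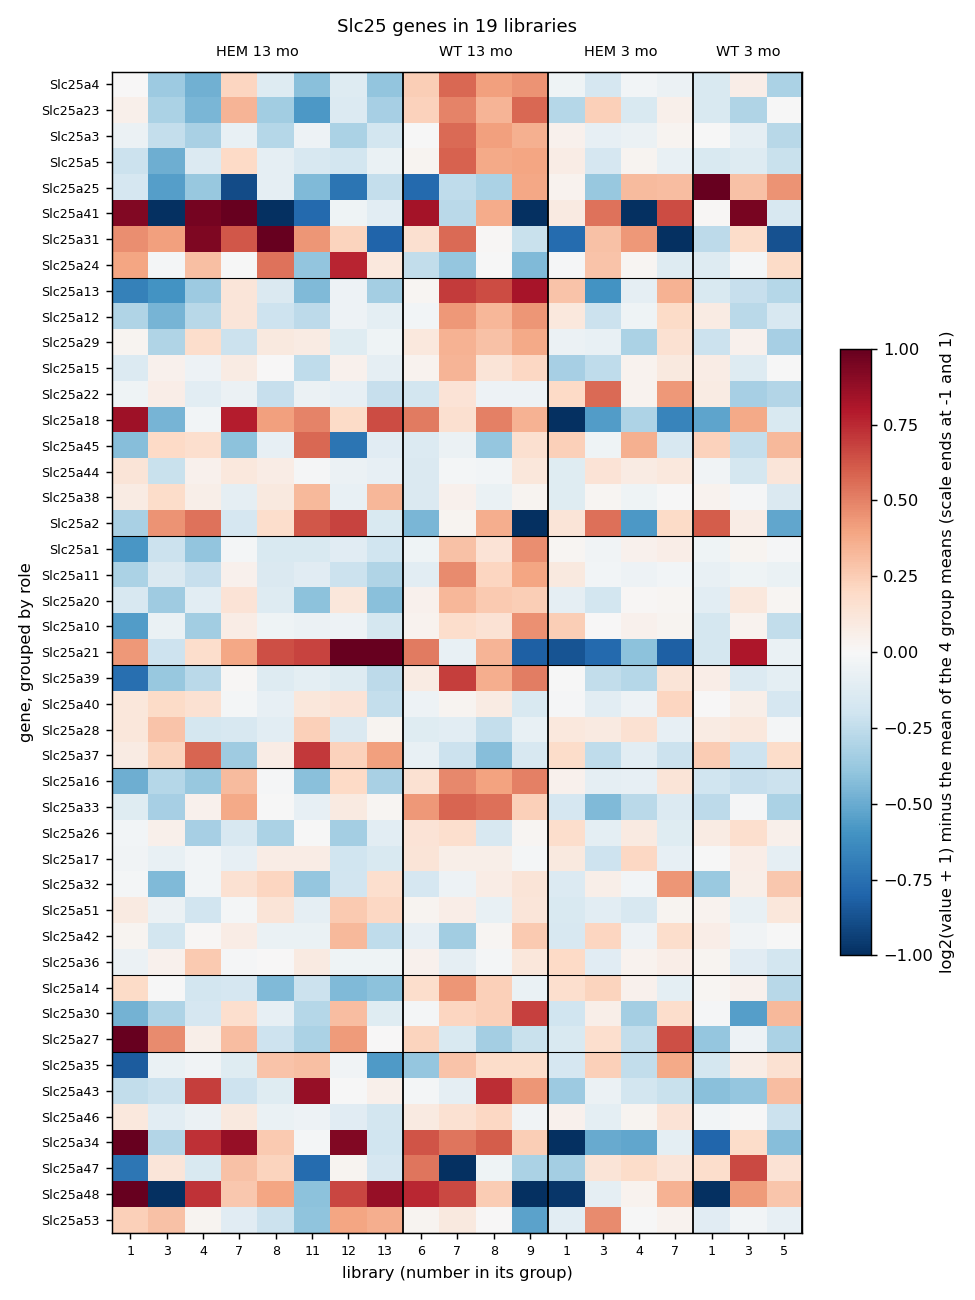
Level of 45 Slc25 genes in the 19 libraries as log2(value + 1) minus the mean of the 4 group means; rows are genes grouped by role, columns are libraries by group, and the colour scale ends at -1 and 1. The 13-month WT columns are above 0 for most of the 14 lower genes, with WT_13mo 6 the palest of them for most, and Slc25a41, Slc25a31 and Slc25a48, which have low counts, vary widely within groups.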

How the data were processed

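Libraries (NEBNext Ultra II, per the labels' protocols) came from brain homogenates of 19 mice after microglia enrichment. The authors used featureCounts, HISAT2, Trimmomatic, DESeq2 and mm10, per the submitters' processing notes; versions, annotation and strand are not given in the sources used here. The deposited signal is gene counts that had been divided by 1 size factor per library, as read from the values: 100% came out as whole reads at a tolerance of 0.01. Symbols and positions came from GENCODE M21 (99.5% of IDs).

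Genes that reached a value of 10 in 3 or more libraries were fitted with limma 3.58.1 (R 4.3.3, trend, robust) on log2(value + 1), the 4 groups in 1 model with no covariate, two-sided, Benjamini-Hochberg adjusted over 23973 genes and called under 0.05. The log2(value + 1) scale understates the change of low genes. The genotypes were compared at both ages, the ages within both genotypes, and the 2 genotype effects with each other. The fit was tested on simulated data, where the 13-month comparison called 23% of genes changed 1.4-fold and 64% of those changed 2-fold. Only 100 genes were changed at each fold there, among 23479, while 2918 genes were called in the data. The adjusted p depends on how many genes change, so these percentages do not carry over to the data. A member that did not pass the test may still differ. Alternatives were edgeR 4.0.16 and DESeq2 1.42.0 on recovered reads, TMM scaling, pseudocounts of 0.5 and 10, no filter, the compared groups alone, marker covariates, a replicate block and leaving out libraries. Each gene is 1 member; every member may be named, with values per library for up to 8 called members by p in each direction, or 2 where none was called. Values of 1 member are not reported here, and the figures leave it out. The members and lists were chosen with earlier results of these data known. Replicates are separate mice per the series' design. Library numbers are those of the titles and no library was left out of the reported fits.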

Additional observations from a re-analysis of the deposited data

Results flagged for a closer look

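In 6 of 138 sets of a member and a group, 1 library lay far from the others by Dixon's criterion, and chance gives about 1 in 20 (5%). Slc25a10 in HEM_3mo 1 was high at 3046, with the next library at 2644. Slc25a27, an uncoupling protein-like carrier of neurons, was high in HEM_13mo 1 at 2100.3, with the next at 1083. Slc25a36 was high in HEM_13mo 4 at 7460.3, with the next at 6634. Slc25a35, which overlaps Rangrf, was low in WT_13mo 6 at 717, with the next at 1066. Slc25a47 was low in HEM_3mo 1 at 123.4, with the next at 170.6. Slc25a53 was low in WT_13mo 9 at 479, with the next at 696. By limma none of these members was called in any comparison except Slc25a10, between HEM and WT at 13 months. HEM_3mo 1 is in neither of those groups but enters the estimate of the spread, which all libraries share. The Slc25a10 call was kept when HEM_3mo 1 was left out.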

How the results depend on the processing

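No named result changed direction under any alternative run. At 13 months, 14 members were lower and 0 higher; higher counts were 1 by edgeR (Slc25a37), 2 by DESeq2 (Slc25a24 and Slc25a37, with 15 lower) and 1 with the neuron and glia level as covariate. Lower counts were 0 with the neutrophil and erythroid level, 0 with the choroid plexus and ependyma level (chosen after seeing the data) and 0 with the replicate block. With age in WT, 1 higher became 7 by DESeq2, with 1 lower, and 0 with no low filter, with the compared groups alone, with either of those marker levels and with the replicate block. With age in HEM, 2 higher became 3 by DESeq2 and 3 with the neuron and glia level, each with 1 lower. They became 1 with the compared groups alone. They became 0 with the neutrophil and erythroid level, with the choroid plexus and ependyma level and with the replicate block. The 1 lower became 0 with the compared groups alone, with those 2 marker levels and with the replicate block. It also became 0 with a pseudocount of 10 and with no low filter. For the difference between ages, DESeq2 gave 1 higher and 9 lower. Without HEM_13mo 1 and 11 and HEM_3mo 3 together, 13-month members were 12 lower and 1 higher (Slc25a24), and both counts with age in HEM were 0. Leaving out each library gave 10 to 14 lower and 0 to 1 higher at 13 months, 0 to 6 higher with age in WT, 0 to 3 higher and 0 to 1 lower with age in HEM, and 0 to 5 lower for the difference. DESeq2 also called more genes overall than limma: 16.6% against 12.2% at 13 months, 5.08% against 0.709% with age in WT, 5.43% against 1.62% with age in HEM and 3.91% against 0% for the difference. The cause of these changes was not tested. TMM scaling moved the median of all genes by at most 0.0053.

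Replicate numbers do not pair the libraries: deviations of same-numbered libraries correlated between -0.07 and 0.17. With the number as a block, 0 genes were called at 13 months, and the 14 members had a median of -0.48, and the standard errors of the 46 were larger by a median factor of 1.54. Low counts limit Slc25a41 and Slc25a48, whose standard errors at 13 months were 0.59 and 0.51 on the log2 scale, so that a change of that size was not detectable.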
